A study of Homo sapiens with 60 samples.

Results

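MT-RNR1 and MT-RNR2, the 12S and 16S ribosomal RNAs of mitochondria, were followed through 60 libraries of SW1783 cells, a human astrocytoma line. They are 2 of the 60675 genes in the deposited count table and were picked by symbol because their levels had been seen to be highest at the medium dose of a Coptidis Rhizoma extract and raised by the formula Banhasasim-tang. The levels in the Coptidis and Banhasasim-tang libraries are therefore given as a description, without a test, and tests are given for the other 6 extracts only. Cells were exposed for 24 h to ethanol extracts of 6 herbs and 2 formulas in DMSO, each at 3 doses. Coptidis Rhizoma was given at a low dose of 0.56 µg/mL, a medium dose of 2.8 µg/mL and a high dose of 14 µg/mL. Bupleuri Radix was given at 8.4, 42 or 210 µg/mL. The formulas Banhasasim-tang and Yijung-tang, and the herbs Aconiti Lateralis Radix Preparata, Cimicifugae Rhizoma, Zizyphi Fructus and Citri Unshius Pericarpium, were given at 20, 100 or 500 µg/mL. The vehicle group had 3 libraries, with 0.1% DMSO per the sample labels and 2% per the series text. All groups were of this 1 cell line, kept in L-15 medium, which supplies galactose in place of glucose.

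Both RNAs are read from the heavy strand of the mitochondrial DNA as neighbours in one long precursor, with a tRNA before, between and after them. Cutting out these tRNAs frees the rRNAs and the mRNAs downstream. A transcription stop just after the 16S gene has been proposed, but not settled, as a way for the rRNAs to be made in excess of the mRNAs. The 12S RNA is the core of the small subunit of the mitochondrial ribosome and the 16S RNA the core of the large subunit; together they translate the 13 respiratory chain proteins that the mitochondrial DNA encodes. On GRCh38, MT-RNR1 (ENSG00000211459, Mt_rRNA, 954 bases) lies at chrM:648-1601 and MT-RNR2 (ENSG00000210082, Mt_rRNA, 1559 bases) at chrM:1671-3229, both on the plus strand and each a single exon.

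The sequences below, from GENCODE v29 transcripts, show the 3 places where a tRNA adjoins an rRNA, since it is at these joints that the members become separate molecules. Capitals mark the tRNA, and up to 60 bases of rRNA are shown on each side. The joints lie at chrM:577-707, chrM:1542-1730 and chrM:3170-3304, all on the plus strand, and the annotated genes abut with no base between them.
MT-TF to MT-RNR1: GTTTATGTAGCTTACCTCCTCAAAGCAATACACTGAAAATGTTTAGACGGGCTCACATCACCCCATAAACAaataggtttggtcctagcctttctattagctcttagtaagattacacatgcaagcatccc
MT-RNR1 to MT-TV to MT-RNR2: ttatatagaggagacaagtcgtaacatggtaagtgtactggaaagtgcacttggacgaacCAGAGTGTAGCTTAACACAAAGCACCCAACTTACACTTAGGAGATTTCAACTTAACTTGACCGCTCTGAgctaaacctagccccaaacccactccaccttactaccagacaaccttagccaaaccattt
MT-RNR2 to MT-TL1: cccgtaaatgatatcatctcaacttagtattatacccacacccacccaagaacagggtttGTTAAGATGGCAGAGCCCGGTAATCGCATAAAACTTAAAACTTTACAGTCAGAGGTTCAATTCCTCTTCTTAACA
The 22 mitochondrial tRNA genes together held at most 9 counts in any library, so the tRNA side of these joints was not measured.

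MT-RNR2 has 13 annotated relatives in the nuclear genome, MTRNR2L1 to MTRNR2L13, which could take or give reads. The first 90 bases of MT-RNR2 (chrM:1671-1760, plus strand) are shown beside the stretch of MTRNR2L8 aligned to them (chr11:10509099-10509188, minus strand), with the 8 differing bases in capitals.
MT-RNR2 stretch: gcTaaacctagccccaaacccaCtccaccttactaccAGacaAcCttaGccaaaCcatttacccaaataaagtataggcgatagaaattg
MTRNR2L8 stretch: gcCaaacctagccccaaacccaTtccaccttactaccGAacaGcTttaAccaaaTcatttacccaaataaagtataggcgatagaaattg
MTRNR2L8 matched MT-RNR2 at 93.0% of 1302 aligned bases and MTRNR2L12 at 95.04% of 1048. No 100-base window of MT-RNR2 (0 of 1460) or of MT-RNR1 (0 of 855) occurred unchanged in a GENCODE transcript of another gene. The 13 relatives together held 0 to 25 counts per library, at most 0.00851% of the count of MT-RNR2 in the same library. MTRNR2L8 was the only one with enough counts to be tested.

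The 60 libraries held 11329310 to 30990264 counts, and the 3 vehicle libraries 15996157 to 20858002. The cells had the glioma and stem-like genes VIM, NES, CD44 and EGFR at 10.2 to 4405 CPM, counts scaled to a common library size, on average in vehicle, but 5 of 8 astrocyte markers under 1 CPM, among them GFAP, AQP4 and ALDH1L1 under 0.1 CPM. The libraries are labelled as mRNA libraries, and the step that separated mRNA from rRNA is not named in the labels, so the amount of an rRNA and how well it was captured cannot be told apart. In these bulk samples, fewer cells and less RNA per cell cannot be told apart either. Whether replicates were separate cultures is not labelled, so the p-values reflect just the library-to-library spread, which may be technical. All 60 libraries are labelled as batch D and second sequencing. The names of extract libraries begin with a number that is here called the set. Coptidis and Zizyphi share set 11, Citri with Cimicifugae make up set 12, Aconiti with Bupleuri set 13, and both formulas set 14. Vehicle libraries carry no such number, so set and treatment cannot be told apart against vehicle.

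A pair of libraries stood apart from the others and were left out of every result unless said. In replicate 1 of high-dose Aconiti, MT-RNR1 held 0.0362% of the counts and MT-RNR2 0.144%, against 0.0755% and 0.0737% for MT-RNR1 and 0.969% and 0.954% for MT-RNR2 in the other replicates of that dose. In replicate 1 of low-dose Yijung-tang, MT-RNR1 held 0.175% and MT-RNR2 0.900%, against 0.0884% and 1.15% in replicate 2. The ratio of MT-RNR2 to MT-RNR1 counts was 3.98 and 5.15 in these libraries, below every kept library of the 6 extracts other than Coptidis and Banhasasim-tang. This left 58 libraries, with 3 for each of 11 extract doses and the vehicle, 2 for 9 extract doses, and 1 for each Banhasasim-tang dose and for low-dose Yijung-tang.

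Coptidis Rhizoma gave the highest shares of both rRNAs, and its medium dose stood above its high dose. MT-RNR1 held 0.0659%, 0.0651% and 0.0684% of all counts in the vehicle libraries, 0.2199% and 0.207% at the low Coptidis dose, 1.87% and 1.83% at the medium dose, and 0.881% and 0.961% at the high dose. MT-RNR2 held 0.839%, 0.819% and 0.882% in vehicle, 1.85% and 1.73% at the low dose, 8.46% and 8.44% at the medium dose, and 3.31% and 3.27% at the high dose. No library of a Coptidis dose overlapped with vehicle or with another Coptidis dose for either RNA. The members were picked for these levels, and the share of all genes without such overlap was not counted. The mean share of MT-RNR1 was 3.21 times that of vehicle at the low dose, 27.9 times at the medium dose and 13.9 times at the high dose. For MT-RNR2 these ratios were 2.12, 9.98 and 3.89. Markers of astrocytes and of other cell types are given as sums, which 1 gene can carry. The 8 astrocyte markers together had 286 to 323 CPM in Coptidis libraries, against 343 to 347 CPM in vehicle, of which GJA1 alone was 238 CPM. Per gene, the 5 astrocyte markers tested had a median fitted log2 ratio to vehicle of -0.06, -0.42 and -2.52 at the low, medium and high Coptidis doses, and 3 of the 5 were below -1 at the high dose, the lowest at -3.83. The 6 microglia and leukocyte markers, of which AIF1, ITGAM and CX3CR1 were under 0.1 CPM in vehicle, had 184 to 279 CPM in Coptidis, against 146 to 153 CPM in vehicle, of which CD68 alone was 133 CPM. The 3 of them tested ran from -1.82 to 1.01 at the high dose, with a median of -0.58. Neuron markers summed to 117 to 160 CPM in Coptidis, against 180 to 181 CPM in vehicle. Epithelial markers summed to 164 to 219 CPM, against 253 to 263 CPM, and oligodendrocyte markers to 7.37 to 13.7 CPM, against 5.34 to 6.81 CPM. At the high dose the 5 neuron markers tested had a median of 0.44 and ran from -2.76 to 1.18. The 3 epithelial markers tested had 0.00 (-0.71 to 0.27) and the 3 oligodendrocyte markers 0.90 (-0.53 to 3.95). The 4 glioma and stem-like genes summed to 7608.5 to 10703 CPM, against 7286 to 7658 CPM in vehicle. Their median at the high dose was 0.05, with a range of -2.97 to 0.85. Libraries of the other 6 extracts had sums of 286 to 409 CPM for astrocyte markers and 155 to 276 CPM for microglia and leukocyte markers. For neuron markers they had 131 to 195 CPM, for epithelial markers 60.4 to 254 CPM and for oligodendrocyte markers 5.84 to 9.18 CPM. Their glioma and stem-like genes summed to 6463 to 7850 CPM. The part of these markers in the result was not tested. Replicates were close together, with a standard deviation of at most 0.09 in log2 share for either RNA at any Coptidis dose (n = 2 each), and 0.04 for MT-RNR1 and 0.05 for MT-RNR2 in vehicle (n = 3). From the medium to the high dose the shares were lower by ratios of 2.01 for MT-RNR1 and 2.57 for MT-RNR2 (medium over high).

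Banhasasim-tang, whose traditional recipe includes Coptis rhizome, had 1 library per dose, so its values have no replicate check. MT-RNR1 held 0.471% of the counts at the low dose, 1.57% at the medium dose and 1.4995% at the high dose, which was 7.08, 23.7 and 22.6 times the vehicle mean of 0.0665%. MT-RNR2 held 3.35%, 7.96% and 6.09%, which was 3.95, 9.40 and 7.20 times the vehicle mean of 0.846%. The 95% Clopper-Pearson interval of the medium-dose share was 1.57 to 1.58% for MT-RNR1, and it covers counting error only. As with Coptidis, the medium dose was above the high dose for both RNAs, by ratios of 1.05 for MT-RNR1 and 1.31 for MT-RNR2. In both extracts MT-RNR1 had the larger ratio to vehicle at every dose.

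**Figure D1:**
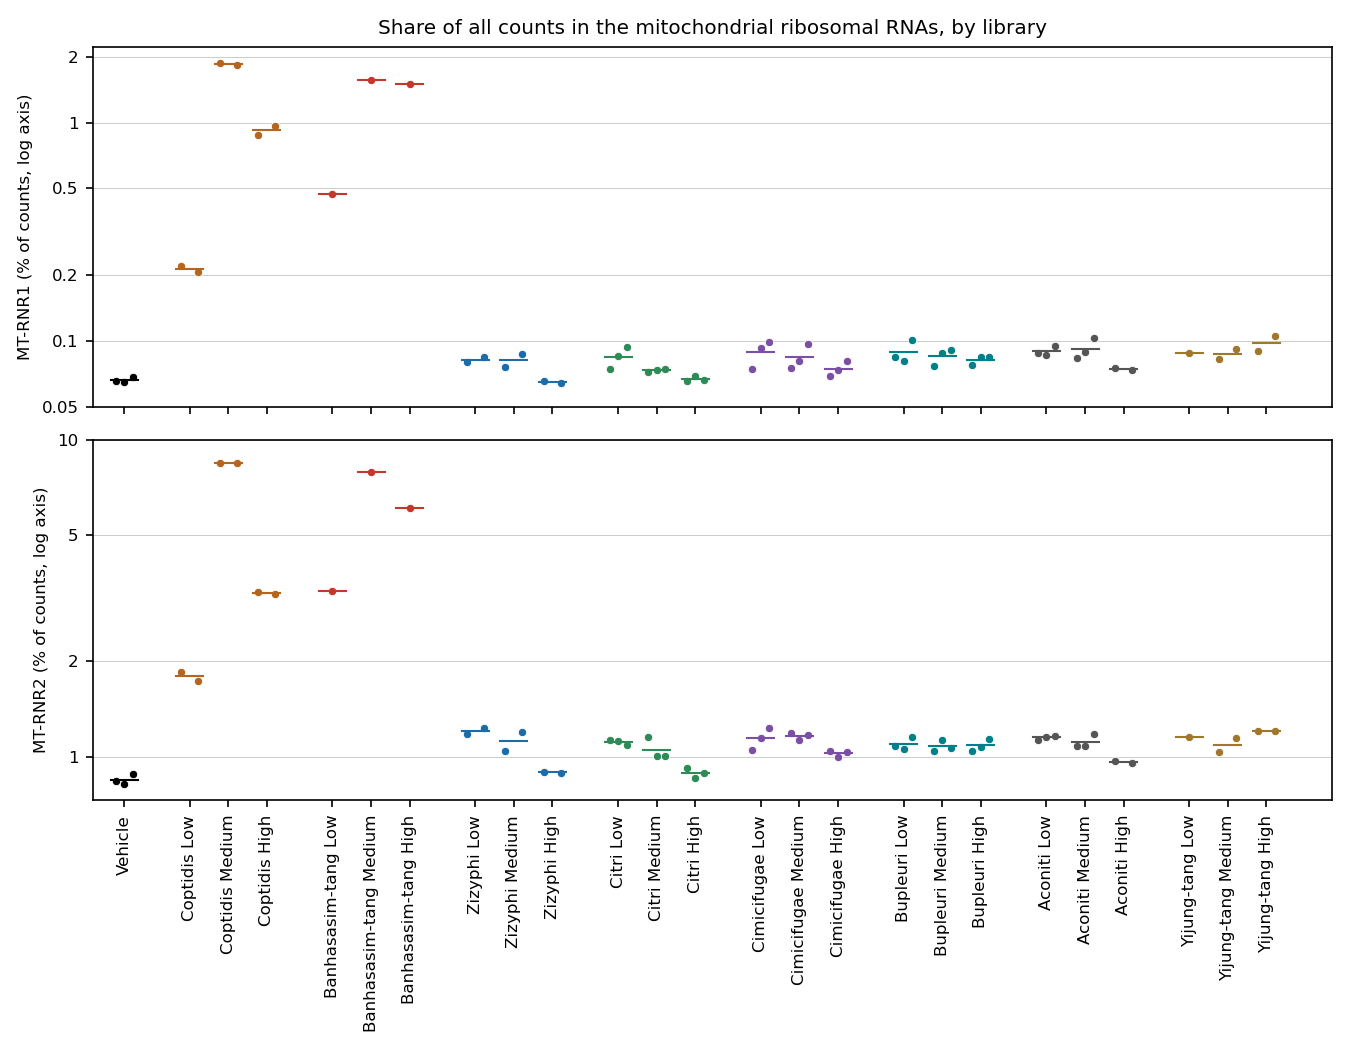
Share of all counts in MT-RNR1 (top) and MT-RNR2 (bottom) in each of the 58 libraries, on log axes. Points are libraries and bars group means. The 9 Coptidis and Banhasasim-tang libraries lie between 0.207 and 1.87% for MT-RNR1 and between 1.73 and 8.46% for MT-RNR2, above all other libraries.

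In the order of group means, the 6 Coptidis and Banhasasim-tang groups came first for both RNAs. For MT-RNR1 the order was medium Coptidis, medium Banhasasim-tang, high Banhasasim-tang, high Coptidis, low Banhasasim-tang and low Coptidis. For MT-RNR2, low Banhasasim-tang (3.35%) stood just above high Coptidis (mean 3.29%). None of these 6 groups overlapped with its neighbour in the order. The Banhasasim-tang groups had 1 library each, so neighbours among them could not overlap whatever their values. The highest of the other groups was high-dose Yijung-tang for both RNAs, at 0.0980 ± 0.0110% for MT-RNR1 and 1.21 ± 0.00127% for MT-RNR2 (SD, n = 2). Below it the groups ran into one another, and for MT-RNR1 each overlapped with the next down to vehicle and high-dose Zizyphi, except medium-dose and high-dose Citri. For MT-RNR2 the breaks in this chain were on either side of high-dose Aconiti, and vehicle came last at 0.846 ± 0.0322% (SD, n = 3).

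The protein-coding genes of the mitochondrial DNA did not share the size of these differences. In the Coptidis and Banhasasim-tang libraries the 13 mitochondrial mRNAs held 3.06 to 5.18% of all counts, against 3.78 to 3.99% in vehicle, while the rRNAs held 1.94 to 10.3%, against 0.884 to 0.950% in vehicle. The rRNAs thus made up 28.6 to 77.2% of the mitochondrial counts in the 9 Coptidis and Banhasasim-tang libraries, against 18.9 to 19.2% in the vehicle libraries and 15.1 to 21.8% in the 46 libraries of the other 6 extracts. All counts from the mitochondrial DNA together reached at most 13.5% of a library.

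At the low and medium Coptidis doses the largest ratios to vehicle among heavy-strand genes were those of its first genes, MT-RNR1, MT-RNR2, MT-ND1 and MT-ND2. At the medium Coptidis dose the log2 ratio of mean CPM to vehicle was 4.97 for MT-RNR1 and 3.49 for MT-RNR2. It was 0.72 for MT-ND1 and 0.48 for MT-ND2, the complex I genes that come next along the strand. For the cytochrome oxidase genes MT-CO1, MT-CO2 and MT-CO3 it was -0.32, -0.49 and -0.24. At the low dose MT-RNR1 stood at 1.71, MT-RNR2 at 1.11, MT-ND1 at 1.19 and MT-ND2 at 0.94, so MT-ND1 was slightly above MT-RNR2. Low-dose Banhasasim-tang had 2.89 for MT-RNR1, 2.05 for MT-RNR2, 1.47 for MT-ND1 and 1.18 for MT-ND2. The high Coptidis dose had 4.06 for MT-RNR1 and 2.23 for MT-RNR2, but a different order after them. There MT-ND3 (0.78), MT-ATP8 (0.56) and MT-CO3 (0.55) stood above MT-ND1 (0.54) and MT-ND2 (0.50). In high-dose Banhasasim-tang MT-ND3 (0.63) stood between MT-ND1 (0.79) and MT-ND2 (0.50). MT-ND6, the only protein-coding gene on the light strand, had 0.31, 0.55 and 0.79 at the low, medium and high Coptidis doses. The lowest value was that of MT-ND4L, a complex I subunit, at -1.17 for the medium Coptidis dose. MT-ND4L overlaps MT-ND4, as MT-ATP8 overlaps MT-ATP6, so the split of reads within these pairs is uncertain.

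Over the 13 mRNAs the median log2 ratio to vehicle was 0.22, -0.13 and 0.47 at the low, medium and high Coptidis doses, and 0.23, -0.01 and 0.18 at those of Banhasasim-tang. The same median over all genes was between -0.02 and 0.01 in these 6 groups. Of the 13 mRNAs, 11, 5 and 10 lay above 0 at the low, medium and high Coptidis doses. The median of the mRNAs was thus lowest at the medium dose, where the rRNAs were highest.

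**Figure D2:**
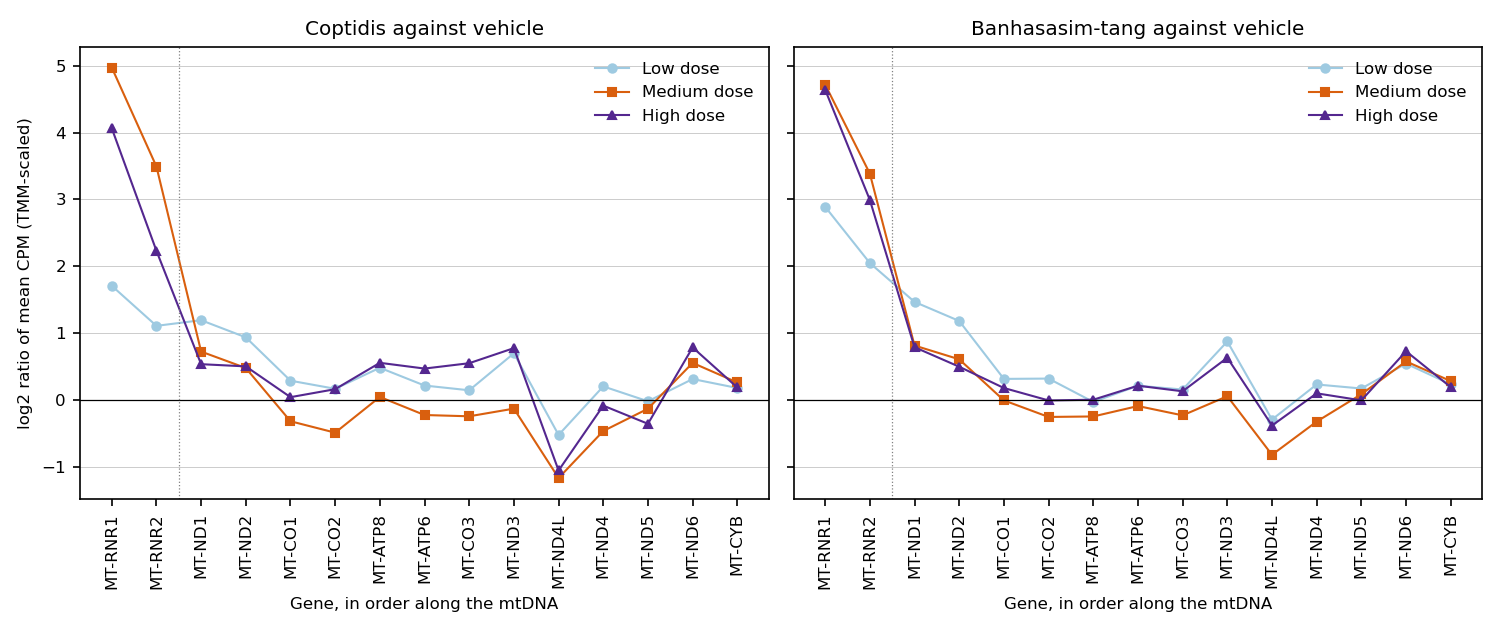
Log2 ratio of mean CPM to vehicle for the 2 rRNAs and 13 mRNAs of the mitochondrial DNA, in gene order, for Coptidis (left, 2 libraries per dose) and Banhasasim-tang (right, 1 library per dose). The dotted line parts the rRNAs from the mRNAs. MT-RNR1 is highest and MT-RNR2 next at the medium doses (4.97 and 3.49 for Coptidis), and the mRNAs lie between -1.17 and 1.47.

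Among all 17680 genes tested, ranked from the highest fitted ratio to vehicle, MT-RNR1 and MT-RNR2 stood at positions 108 and 275 at the low Coptidis dose, 22 and 40 at the medium dose and 80 and 323 at the high dose. Among the 7958 of them with at least 20 CPM in vehicle, a limit set after the values were seen, they stood at positions 1 and 3, 1 and 2, and 2 and 26. High positions follow in part from how the members were picked, so they are a description and no support.

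**Figure D3:**
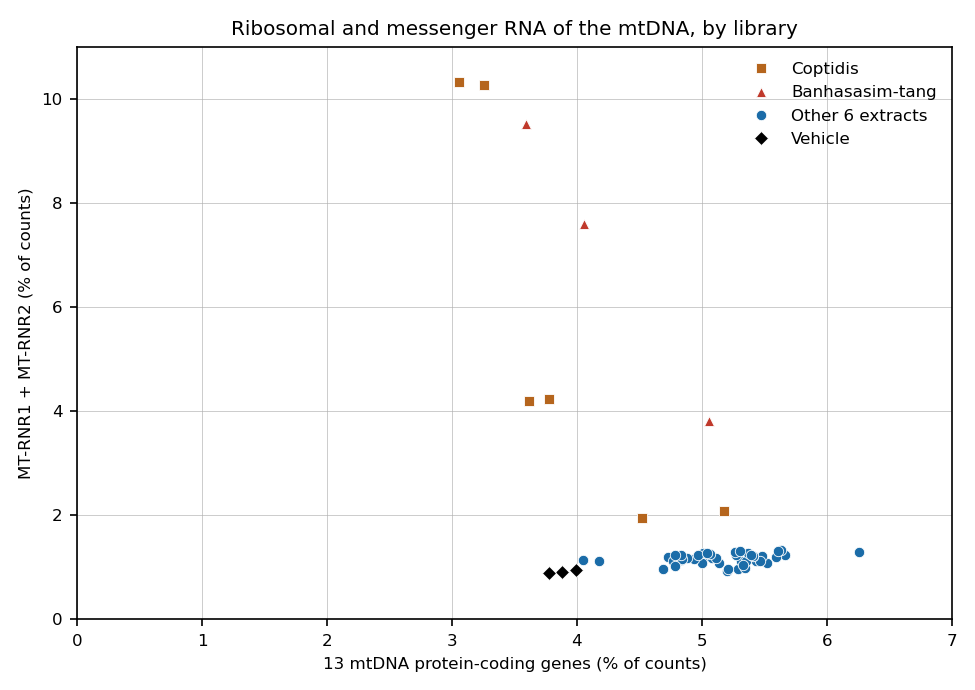
Summed share of MT-RNR1 and MT-RNR2 against that of the 13 mitochondrial mRNAs in each of the 58 libraries, both in % of all counts. The Coptidis and Banhasasim-tang libraries lie at 1.94 to 10.3% rRNA and 3.06 to 5.18% mRNA, the other extracts at 0.925 to 1.33% and 4.05 to 6.26%, and vehicle at 0.884 to 0.950% and 3.78 to 3.99%.

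The ratio of the rRNAs to each other also differed. MT-RNR2 had 12.6 to 12.9 counts for each MT-RNR1 count in vehicle, or 7.70 to 7.88 per base of gene. In Coptidis libraries the ratio of counts was 8.43 and 8.37 at the low dose, 4.51 and 4.61 at the medium dose, and 3.76 and 3.40 at the high dose. In Banhasasim-tang it was 7.11, 5.06 and 4.06 from the low to the high dose. So the ratio was lower at each higher dose, while the levels themselves were highest at the medium dose. The 46 libraries of the other 6 extracts had 11.4 to 15.9, and none of the 9 Coptidis and Banhasasim-tang libraries reached into that range.

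For the other 6 extracts the ratio was tested in 23 comparisons with a two-sided exact permutation test on the mean log2 ratio. None passed after adjustment over the 23, the smallest adjusted p being 0.575 and the smallest p 0.1. With 3 libraries against 3, or 2 against 3, no p below 0.1 is possible, and with 2 against 2 none below 0.333. The largest difference from vehicle was at low-dose Zizyphi, where the ratio averaged 14.6 ± 0.125 (SD, n = 2), against 12.7 ± 0.151 in vehicle (SD, n = 3), without overlap (exact p = 0.1).

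**Figure D4:**
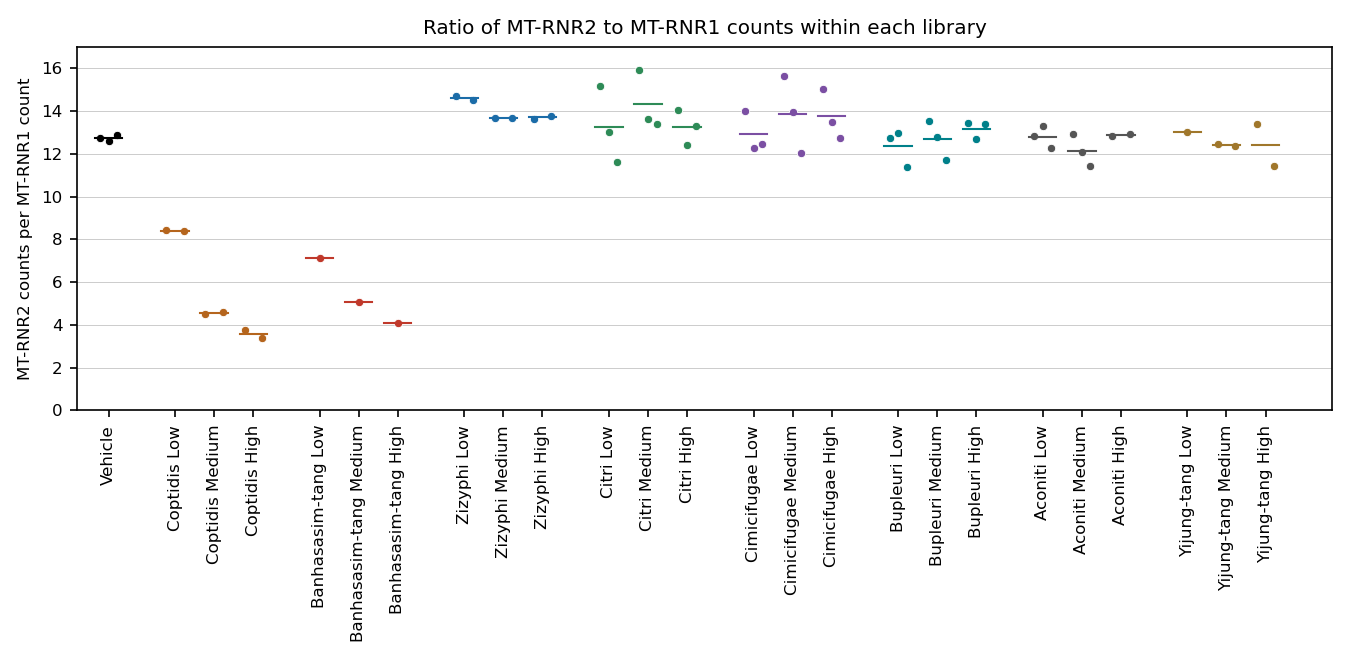
Counts of MT-RNR2 per count of MT-RNR1 in each of the 58 libraries. Points are libraries and bars group means. The Coptidis and Banhasasim-tang libraries lie at 3.40 to 8.43, below the vehicle libraries at 12.6 to 12.9 and the other extracts at 11.4 to 15.9.

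Genes that make, cut, modify or bind these rRNAs are encoded in the nucleus. At the medium Coptidis dose the 7 genes of mitochondrial transcription had a median fitted log2 ratio to vehicle of -0.23, with no gene beyond 1 in size, and the 17 of RNA processing and decay had -0.10. The 23 genes of rRNA modification and ribosome assembly had -0.02, the 48 large-subunit proteins 0.00 and the 32 small-subunit proteins -0.02, beside 0.00 over all genes. At the high dose these medians were 0.06, -0.20, -0.12, 0.00 and 0.10, beside -0.02 over all genes. Single genes moved further at the high dose, and the 4 named here were chosen after their values were seen. POLRMT, the mitochondrial RNA polymerase, had 0.19 at the medium and 1.10 at the high dose. TFAM, which packs mitochondrial DNA and starts its transcription, had -0.24 and -0.58. SUPV3L1, the helicase of mitochondrial RNA decay, had 0.16 and 1.69, and FASTKD5, which matures mRNAs that no tRNA flanks, had -0.41 and -2.40.

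In the integrated stress response the factor ATF4 raises genes of amino acid synthesis and transport. The 13 genes of that list had a median fitted log2 ratio to vehicle of 0.09 at the low, 1.64 at the medium and 3.00 at the high Coptidis dose. Their median was thus highest at the high dose and the rRNAs at the medium dose. This did not hold for every gene, as the fitted log2 ratio of high to medium dose ran from -0.64 to 3.26 (median 0.93). By mean CPM, CHAC1 had a log2 ratio to vehicle of 3.29 at the medium and 3.05 at the high dose, and PSAT1 1.76 and 1.81. The genes whose log2 CPM was most like that of MT-RNR1 over the 58 libraries, among 11310 genes, were MT-RNR2 (Pearson r = 0.988), CHAC1 (0.925), JDP2 (0.909), PSAT1 (0.896) and SLC1A4 (0.894). For MT-RNR2 they were MT-RNR1, CHAC1 (0.908), JDP2 (0.882), PSAT1 (0.870) and SLC1A4 (0.856). CHAC1 breaks down glutathione, PSAT1 makes serine, SLC1A4 carries neutral amino acids and JDP2 is a transcription factor of the AP-1 family. These correlations are a description. The libraries share extracts and sets, and the 9 Coptidis and Banhasasim-tang libraries lie far from the rest.

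Within groups the likeness was to other genes. Over 54 libraries, as deviations from the group means, MT-RNR2 was most like MT-CO3 (0.753), MT-ND4 (0.753), MT-ND3 (0.732), MT-CYB (0.709) and PA2G4 (0.657), 4 of them mRNAs of the same genome. MT-RNR1 was most like UBALD2 (0.759), MPI (0.749), EMP3 (0.720), TAGLN2 (0.717) and PDK2 (0.706), none of them mitochondrially encoded. MT-RNR1 and MT-RNR2 had a Pearson r of 0.541 with each other in this measure (Spearman rho 0.498), against 0.988 (0.869) over all 58 libraries.

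Other RNAs known to lack a poly(A) tail in large part were looked at beside the rRNAs. The 7SL RNA genes RN7SL1 and RN7SL2, which encode the RNA of the signal recognition particle, together had 3.72 to 11.2 CPM in Coptidis and 41.4 to 92.8 CPM in Banhasasim-tang, against 5.66 to 17.9 CPM in vehicle, while the other extracts spanned 2.06 to 56.3 CPM. Histone genes, whose mRNAs mostly end in a stem-loop in place of a poly(A) tail, had 7.28 to 18.2 CPM in Coptidis and 11.3 to 15.7 CPM in Banhasasim-tang, against 16.8 to 19.3 CPM in vehicle. The 7SL values were thus within or below the vehicle range in Coptidis and above it in Banhasasim-tang, and the part of these RNAs in the rRNA shares was not tested. Nuclear rRNA genes had at most 17 counts in any of these libraries.

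Among the other 6 extracts, the comparison of doses within an extract keeps to 1 set. Each gene was tested with edgeR's quasi-likelihood test, with p-values adjusted after Benjamini and Hochberg over 17680 genes, and one with an adjusted p under 0.05 is called changed. MT-RNR2 fell at the high dose against the low dose in Zizyphi, Citri, Aconiti and Cimicifugae, and MT-RNR1 fell in Zizyphi, Citri and Cimicifugae. These changes were at most 0.46 on the log2 scale in size. Here and below, overlap between groups is a description only, as the share of all genes without overlap was not counted.

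In Zizyphi, MT-RNR2 held 0.896% and 0.891% of the counts at the high dose, against 1.18% and 1.23% at the low dose. The groups did not overlap, and the log2 fold change was -0.46 ± 0.06 (SE; edgeR adjusted p = 5.45e-06), in a comparison where 7.4% of all genes were called. MT-RNR1 held 0.0656% and 0.0648% at the high dose, against 0.0800% and 0.0848% at the low dose (log2 fold change -0.36 ± 0.11, SE; edgeR adjusted p = 0.0329). The call on MT-RNR1 ended without any one of the 4 libraries, with edgeR adjusted p between 0.0789 and 0.217, while that on MT-RNR2 held.

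In Citri, where 13.8% of genes were called, both fell by nearly the same amount. MT-RNR1 held 0.0658%, 0.0691% and 0.0668% at the high dose, against 0.0744%, 0.0858% and 0.0941% at the low dose (log2 fold change -0.37 ± 0.09, SE; edgeR adjusted p = 0.00318). MT-RNR2 held 0.924%, 0.856% and 0.888%, against 1.13%, 1.12% and 1.09% (-0.36 ± 0.05; edgeR adjusted p = 2.55e-06). Neither overlapped between doses, and both calls held without any single library.

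Cimicifugae, tested in the same set as Citri, had smaller changes, with 10.7% of genes called. MT-RNR1 held 0.0695%, 0.0739% and 0.0814% at the high dose, against 0.0751%, 0.0930% and 0.0988% at the low dose, so that the groups overlapped (log2 fold change -0.27 ± 0.09, SE; edgeR adjusted p = 0.0469). MT-RNR2 held 1.045%, 0.997% and 1.036% at the high dose, against 1.052%, 1.14% and 1.23% at the low dose (-0.17 ± 0.05; edgeR adjusted p = 0.0247). The call on MT-RNR1 ended without replicate 1 or 2 of the high dose or replicate 2 or 3 of the low dose (edgeR adjusted p = 0.209, 0.149, 0.159 and 0.274), and that on MT-RNR2 without replicate 2 of the high dose or replicate 2 or 3 of the low dose (0.139, 0.0638 and 0.231). Without replicate 3 of the low dose the log2 fold change was -0.18 for MT-RNR1 and -0.11 for MT-RNR2. The difference between Citri and Cimicifugae in the dose effect was -0.10 ± 0.13 for MT-RNR1 and -0.18 ± 0.07 for MT-RNR2 (SE; edgeR adjusted p = 0.841 and 0.311; a test chosen after the values were seen), in a contrast where 1.07% of genes were called.

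In Aconiti, where 9.53% of genes were called, MT-RNR2 held 0.969% and 0.954% at the high dose, against 1.13%, 1.15% and 1.17% at the low dose (log2 fold change -0.29 ± 0.06, SE; edgeR adjusted p = 0.000553). MT-RNR1 held 0.0755% and 0.0737%, against 0.0883%, 0.0866% and 0.0951%, without overlap. It did not pass (log2 fold change -0.30 ± 0.10, edgeR adjusted p = 0.0511). With the replicate number as a block it was called (log2 fold change -0.35, edgeR adjusted p = 0.00046), so this result depends on the model. The deviations of same-numbered libraries had a correlation r of 0.02 to 0.05 here, and the main fit has no block. With both libraries that stood apart put back, the log2 fold change was -0.77 for MT-RNR2 (edgeR adjusted p = 0.0549) and -0.57 for MT-RNR1 (edgeR adjusted p = 0.0454).

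Bupleuri, tested in the same set as Aconiti, had overlapping doses although 39.2% of genes were called. MT-RNR2 held 1.04%, 1.07% and 1.14% at the high dose, against 1.08%, 1.06% and 1.15% at the low dose (log2 fold change 0.00 ± 0.05, SE; edgeR adjusted p = 0.972). MT-RNR1 held 0.0777%, 0.0848% and 0.0851%, against 0.0851%, 0.0815% and 0.101% (-0.10 ± 0.09; edgeR adjusted p = 0.392). The dose effect on MT-RNR2 was higher in Bupleuri than in Aconiti by 0.28 ± 0.08 on the log2 scale (SE; edgeR adjusted p = 0.00600, a test chosen after the values were seen), in a contrast where 23.4% of genes were called. For MT-RNR1 that difference was 0.20 ± 0.13 (SE; edgeR adjusted p = 0.329).

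Yijung-tang kept 1 library at its low dose, so its high dose was set against the medium dose, where 9.16% of genes were called. MT-RNR2 held 1.21% in both high-dose libraries, against 1.04% and 1.15% at the medium dose, and MT-RNR1 held 0.0903% and 0.106%, against 0.0832% and 0.0925%. Neither was called, with log2 fold changes of 0.14 ± 0.06 for MT-RNR2 and 0.15 ± 0.11 for MT-RNR1 (SE; edgeR adjusted p = 0.202 and 0.478).

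No mitochondrial mRNA was called between the doses at which the rRNAs fell. By edgeR and by DESeq2, 0 of the 13 were called in either direction between the high and the low dose of Zizyphi, Citri, Cimicifugae, Bupleuri or Aconiti, with median log2 fold changes of -0.18, 0.00, 0.05, 0.09 and -0.05, beside 0.00 over all genes in each. Of all genes, edgeR called 7.4%, 13.8%, 10.7%, 39.2% and 9.53% in the same order. With 13 genes, 0 calls is near these shares except in Bupleuri, so it does not set the mRNAs apart from other genes. At an unadjusted edgeR p under 0.05 there were 2 in Zizyphi, 0 in Citri, 0 in Cimicifugae, 1 in Bupleuri and 0 in Aconiti. Between the high and medium doses of Yijung-tang 4.11% of all genes rose. In Yijung-tang 2 of 13 rose, MT-ND2 (0.51 ± 0.15, SE; edgeR adjusted p = 0.0211) and MT-ND4 (0.39 ± 0.12, SE; edgeR adjusted p = 0.0416).

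Among nuclear genes that act on these RNAs, the most calls were in Bupleuri, in which the rRNAs were not called and 39.2% of all genes were. Of the 17 processing and decay genes, 8 rose and 2 fell there, among them LRPPRC, which stabilises mitochondrial mRNAs (0.36 ± 0.04, SE; edgeR adjusted p = 3.60e-11), and FASTKD2, which binds the 16S rRNA (0.40 ± 0.06, SE; edgeR adjusted p = 1.34e-06). Their median log2 fold change was 0.15, beside 0.00 over all genes. In Citri and Cimicifugae 2 of the 17 fell and none rose, where 13.8% and 10.7% of all genes were called, and in Zizyphi and Aconiti 0 were called by edgeR or DESeq2 (3 and 2 at an unadjusted edgeR p under 0.05). Of the 7 transcription genes, POLRMT rose in Bupleuri (0.16 ± 0.05), Citri (0.16 ± 0.05) and Cimicifugae (0.15 ± 0.05), and MTERF1, which binds the stop site past the 16S gene, fell in Citri (-0.23 ± 0.07) and Cimicifugae (-0.25 ± 0.07; SE, edgeR adjusted p at most 0.0479 for each). Of the 13 integrated stress response genes, 11 rose in Aconiti, 11 in Yijung-tang, 9 in Bupleuri, 6 in Cimicifugae and 3 in Citri, where 4.28%, 4.11%, 20.6%, 4.88% and 6.43% of all genes rose. In Citri 2 of them fell, as did 2 in Zizyphi, where 7.34% and 4.28% of all genes fell.

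**Figure D5:**
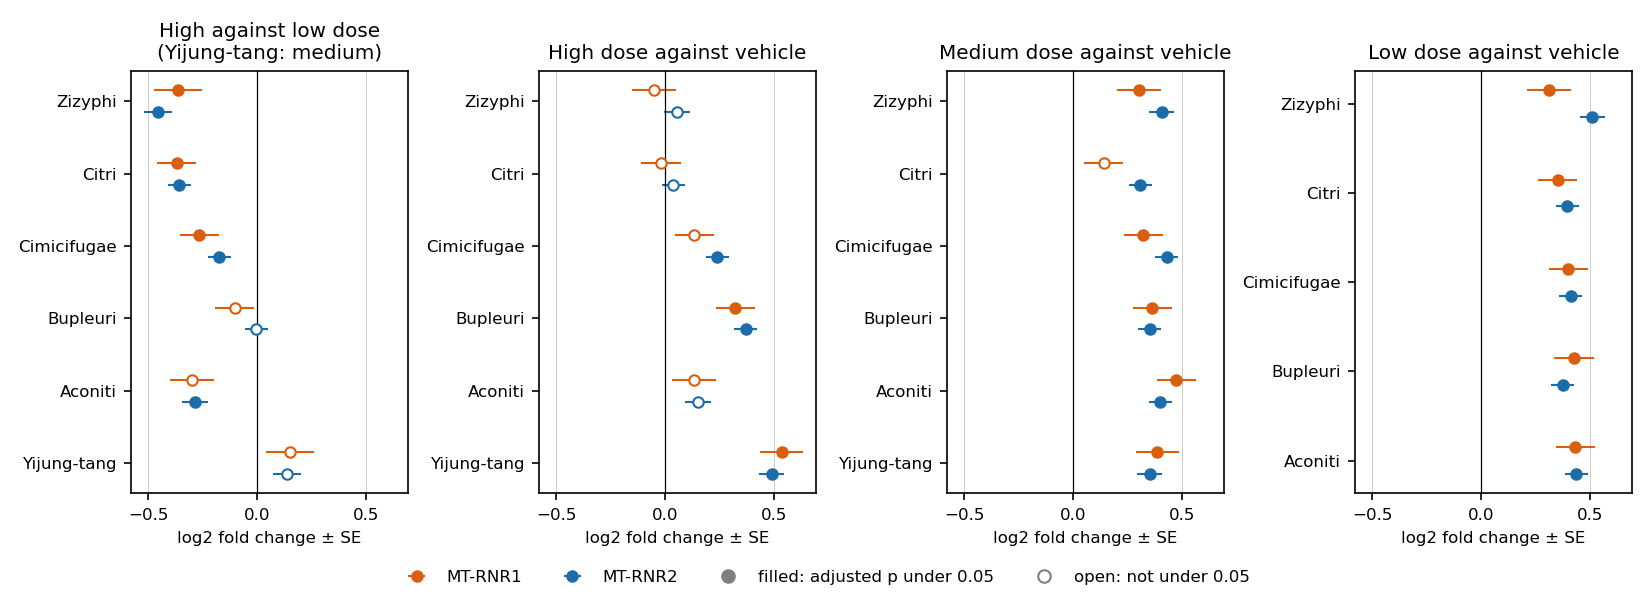
Fitted log2 fold changes of MT-RNR1 (orange) and MT-RNR2 (blue) with their standard errors in 23 comparisons. Filled points have an adjusted p under 0.05. Between doses the values run from -0.46 to 0.15. Against vehicle they run from 0.31 to 0.51 at the low doses and from 0.14 to 0.47 at the medium doses.

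Against vehicle, the 6 extracts mostly had slightly higher levels of both rRNAs. These comparisons share the same 3 vehicle libraries, and set and treatment cannot be told apart in them. At the low doses MT-RNR2 held 1.05 to 1.23% of the counts, against 0.819 to 0.882% in vehicle, without overlap. It rose by 0.51 on the log2 scale in Zizyphi, 0.39 in Citri, 0.41 in Cimicifugae, 0.37 in Bupleuri and 0.44 in Aconiti (SE 0.05 to 0.06; edgeR adjusted p at most 1.71e-06), where 4.82%, 6.82%, 8.78%, 12% and 8.46% of all genes rose. MT-RNR1 held 0.0744 to 0.101%, against 0.0651 to 0.0684% in vehicle, and rose by 0.31, 0.35, 0.40, 0.43 and 0.43 in the same order (SE 0.09 to 0.10; edgeR adjusted p at most 0.0336).

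At the medium doses MT-RNR2 rose by 0.41 in Zizyphi, 0.31 in Citri, 0.43 in Cimicifugae, 0.35 in Bupleuri, 0.40 in Aconiti and 0.35 in Yijung-tang (SE 0.05 to 0.06; edgeR adjusted p at most 6.27e-05). The shares of all genes that rose were 5.58%, 7.61%, 14.3%, 10.1%, 11.9% and 6.43%. MT-RNR1 rose by 0.30 in Zizyphi, 0.32 in Cimicifugae, 0.36 in Bupleuri, 0.47 in Aconiti and 0.39 in Yijung-tang (SE 0.09 to 0.10; edgeR adjusted p at most 0.0356), and was not called in Citri (0.14 ± 0.09, SE; edgeR adjusted p = 0.311). Single libraries decided some of the calls on MT-RNR1. They ended in low-dose Zizyphi without vehicle replicate 1 or 2 or Zizyphi replicate 2 or 3, in medium-dose Zizyphi without vehicle replicate 1 or 2 or Zizyphi replicate 3, and without replicate 3 of low-dose Citri, replicate 3 of medium-dose Cimicifugae or replicate 2 of medium-dose Yijung-tang. The edgeR adjusted p was then 0.0639 to 0.440, with log2 fold changes of 0.20 to 0.36.

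At the high doses MT-RNR2 rose in Cimicifugae, Bupleuri and Yijung-tang. It held 1.045%, 0.997% and 1.036% in high-dose Cimicifugae, 1.04%, 1.07% and 1.14% in high-dose Bupleuri and 1.21% in both high-dose Yijung-tang libraries, against 0.839%, 0.819% and 0.882% in vehicle. The log2 fold changes were 0.24 ± 0.05, 0.37 ± 0.05 and 0.49 ± 0.06 (SE; edgeR adjusted p = 0.000331, 1.37e-07 and 9.11e-09), where 16.5%, 20.2% and 14.1% of all genes rose. MT-RNR1 rose in Bupleuri (0.32 ± 0.09) and Yijung-tang (0.54 ± 0.10; SE, edgeR adjusted p = 0.00341 and 4.10e-05) and was not called in Cimicifugae (0.13 ± 0.09; edgeR adjusted p = 0.265). In high-dose Zizyphi and Citri, where 9.64% and 14.3% of all genes rose, the values were 0.05 and 0.04 for MT-RNR2 and -0.05 and -0.02 for MT-RNR1 (edgeR adjusted p between 0.574 and 0.903). In high-dose Aconiti, where 12.7% of all genes rose, they were 0.15 ± 0.06 for MT-RNR2 and 0.13 ± 0.10 for MT-RNR1 (SE; edgeR adjusted p = 0.0505 and 0.354). With both libraries that stood apart put back, high-dose Aconiti had -0.32 for MT-RNR2 and -0.13 for MT-RNR1 (edgeR adjusted p = 0.338 and 0.615). Low-dose Yijung-tang had 1 kept library and no test, and held 1.33 times the vehicle mean share of MT-RNR1 and 1.36 times that of MT-RNR2.

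All groups share one fit, so the libraries that stood apart also bear on the other comparisons. With both put back, no call on either member against vehicle held at the low and medium doses (0 of 11 comparisons for each), and none of the members' calls between doses or at the high doses against vehicle held.

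Most mitochondrial mRNAs were also above vehicle in these extracts. Together they held 4.05 to 6.26% of the counts in the 46 extract libraries, against 3.78 to 3.99% in vehicle, without overlap. Of all genes, 9.64 to 20.2% rose against vehicle at the high doses. That share was 5.58 to 14.3% at the medium doses and 4.82 to 12% at the low doses. At the high doses 9 of 13 rose in Zizyphi, 10 in Aconiti and 11 in each of Citri, Cimicifugae, Bupleuri and Yijung-tang, and the median log2 fold changes were 0.37 to 0.49, beside 0.00 to 0.01 over all genes. At the medium doses 12 rose in Zizyphi, 11 in each of Citri, Cimicifugae, Bupleuri and Aconiti, and 2 in Yijung-tang, and at the low doses 11 rose in each of Zizyphi, Citri, Bupleuri and Aconiti and 10 in Cimicifugae. MT-ND4L rose in none of these comparisons and fell in high-dose Cimicifugae (-0.37 ± 0.11), low-dose Citri (-0.36 ± 0.11) and low-dose Bupleuri (-0.42 ± 0.11; SE, edgeR adjusted p = 0.00730, 0.0216 and 0.00366). MT-ATP8, a subunit of ATP synthase, rose in medium-dose Zizyphi only (1.60 ± 0.36, SE; edgeR adjusted p = 0.0019). The rRNA share of mitochondrial counts in these libraries (15.1 to 21.8%) spanned that of vehicle (18.9 to 19.2%).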

How the data were processed

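The authors deposited RSEM expected counts per gene for 60 libraries, per the submitters' processing notes, and 9.18% of its values were not whole. Reads were trimmed with Trim Galore 0.6.5, aligned with STAR 2.7.3a to hg38 and counted with RSEM 1.3.3, with FastQC 0.11.9, per the submitters' processing notes. The labels give directional mRNA libraries from total RNA with a RIN above 7, read as 100 base paired ends. Strand setting and annotation were not stated there. Names, lengths and sequences come from GENCODE v29, which held genes with 99.968% of the counts.

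Shares are counts of a gene over all counts of a library. For tests, counts were rounded, genes with low counts were removed (filterByExpr, minimum count 10) and TMM scaling was used. One quasi-likelihood model of 54 libraries in 21 groups was fitted with edgeR 4.0.16 in R 4.3.3, without a replicate term. The 2 libraries that stood apart and groups of 1 library were left out of it. P-values were adjusted over 17680 genes within each of 23 comparisons, at a threshold of 0.05. The standard error is the size of the log2 fold change over the root of its F statistic. The fit was tested on simulated data. Alternatives were other scalings, no filter, DESeq2 1.42.0, fits of only the groups compared, a replicate term, the left-out libraries put back and each library left out.

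The members and all lists were chosen with earlier results of these data known. Named genes are the members, the mitochondrial mRNAs, up to 3 called genes of each other list with the smallest p in a comparison, and the 5 genes most like each member among those of at least 5 CPM, besides genes said to be chosen after their values were seen. Same-numbered replicates were not treated as pairs, as their deviations had a correlation r of only -0.27 to 0.32 over the comparisons. Between doses r was above 0 throughout in Citri (0.03 to 0.32) and Cimicifugae (0.05 to 0.31). The ratio of MT-RNR2 to MT-RNR1 counts was highest in the library numbered 1 in 9 of 11 extract doses. A part of the replicate number in the results is thus not excluded.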

Additional observations from a re-analysis of the deposited data

Results flagged for a closer look

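The dose effect on MT-RNR2 differed between Bupleuri and Aconiti, extracts of the same set, in a test chosen after the values were seen. In that contrast 23.4% of all genes were called, and MT-RNR1 was not (edgeR adjusted p = 0.329). In the other pair tested, Citri and Cimicifugae, neither MT-RNR1 nor MT-RNR2 was called (edgeR adjusted p = 0.841 and 0.311). The high against low dose difference was higher in Bupleuri than in Aconiti by 0.28 ± 0.08 on the log2 scale (SE; edgeR adjusted p = 0.00600), by a test of the difference itself that rests on 2 high-dose Aconiti libraries.

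The left-out replicate 1 of low-dose Yijung-tang held 0.175% of its counts in MT-RNR1 and 0.900% in MT-RNR2, against at most 0.0684% and 0.882% in the vehicle libraries. This library entered no comparison. Both values lie above every vehicle library, as did 42 of 46 kept libraries of the 6 extracts other than Coptidis and Banhasasim-tang for MT-RNR1, and 45 for MT-RNR2. Its MT-RNR1 share lies above the range of those libraries (0.0648 to 0.106%), and its MT-RNR2 share lies within theirs (0.856 to 1.23%). The ratio of MT-RNR2 to MT-RNR1 counts was 5.15, against 11.4 to 15.9 in them.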

How the results depend on the processing

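Putting back both libraries that stood apart changed the most calls, and the cause was not tested. Between the high and low dose, MT-RNR1 then had -0.57 in Aconiti (now called), and, no longer called, -0.26 in Cimicifugae, -0.37 in Citri and -0.36 in Zizyphi. MT-RNR2 had -0.77 in Aconiti, -0.17 in Cimicifugae, -0.36 in Citri and -0.46 in Zizyphi, none called. At the high dose against vehicle, MT-RNR1 had -0.13 in Aconiti, 0.33 in Bupleuri and 0.55 in Yijung-tang, and MT-RNR2 -0.32 in Aconiti, 0.37 in Bupleuri, 0.25 in Cimicifugae and 0.50 in Yijung-tang, none called. The count of called comparisons of 11 at the medium and low doses was 0 for each member, and 0 mitochondrial mRNAs rose in Yijung-tang. The log2 ratio of MT-RNR2 to MT-RNR1 in high-dose Aconiti was then -0.55 against the low dose and -0.55 against vehicle. Over the 23 comparisons 12 to 5368 genes were called, and 21 of these counts moved by over 1.5 times; fits of only the groups compared called 373 to 7430 genes and moved 2 counts so far.

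The call on MT-RNR2 in high-dose Aconiti against vehicle was gained with DESeq2 (0.15), DESeq2 size factors in edgeR (0.15), library totals (0.18), scaling without mitochondrial genes (0.16), no filter (0.17) and only the 2 groups (0.16). Without the filter, calls were also gained for MT-RNR1 in Aconiti (-0.29 between doses, 0.15 against vehicle), Bupleuri (-0.11 between doses), Cimicifugae (0.14 against vehicle) and Yijung-tang (0.15), and for MT-RNR2 in Yijung-tang (0.14). In fits of only the 2 groups, they were gained for MT-RNR1 in Aconiti (-0.30 and 0.14) and high-dose Cimicifugae (0.15 against vehicle) and for MT-RNR2 in Yijung-tang (0.14), and lost in Cimicifugae between doses (-0.27 and -0.17). The call on MT-RNR1 in Cimicifugae between doses was also lost with DESeq2 (-0.27) and library totals (-0.25). With library totals MT-RNR1 in high-dose Citri against vehicle was 0.016.

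On the log2 scale the ratio to vehicle with TMM-scaled CPM, in place of shares, was 4.97 and 4.06 for MT-RNR1 at the medium and high Coptidis doses and 2.89, 4.72 and 4.64 at the low, medium and high Banhasasim-tang doses. For MT-RNR2 it was 3.49 and 2.23, and 2.05, 3.39 and 2.99. With DESeq2 size factors it was 4.97, 4.08, 2.88, 4.70 and 4.63 for MT-RNR1 and 3.49, 2.25, 2.04, 3.37 and 2.98 for MT-RNR2.

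With 1 library left out, the log2 fold change ranged from -0.38 to -0.18 for MT-RNR1 and from -0.24 to -0.11 for MT-RNR2 in Cimicifugae between doses, from -0.41 to -0.32 for MT-RNR1 in Zizyphi between doses, from -0.030 to 0.0095 for MT-RNR1 in high-dose Citri against vehicle, from 0.13 to 0.19 for MT-RNR2 in high-dose Aconiti against vehicle, and from -0.042 to 0.032 for MT-RNR2 in Bupleuri between doses. The log2 ratio of the members ranged from -0.019 to 0.040 in Aconiti, -0.089 to 0.11 in Citri and -0.12 to 0.11 in Yijung-tang between doses. Against vehicle it ranged from -0.022 to 0.037 in low-dose Aconiti, -0.081 to 0.013 in low-dose and -0.056 to 0.047 in medium-dose Bupleuri, -0.040 to 0.055 in low-dose Cimicifugae, -0.050 to 0.14 in low-dose Citri and -0.16 to 0.074 in high-dose Yijung-tang.

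With the replicate number as a block, MT-RNR1 in Aconiti between doses had -0.35 (edgeR adjusted p = 0.00046), now called, and no other call on a member changed.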

Other observations

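In a look chosen after the data were seen, the ratio of MT-RNR2 to MT-RNR1 counts was highest in the library numbered 1 in 9 of the 11 extract doses with 3 libraries, and lowest in the library numbered 3 in 8 of the 11. Low-dose Citri had 15.2, 13.0 and 11.6 in replicates 1, 2 and 3, and medium-dose Cimicifugae 15.6, 13.9 and 12.1, whereas low-dose Aconiti had 12.8, 13.3 and 12.3. What the replicate numbers stand for is not given in the labels.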
